A study of Mus musculus with 24 samples.

Results

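The 10 genes described here encode the integrins and hemidesmosome proteins that fasten airway basal cells to the basement membrane. They are Itga6, Itgb4, Itga3, Itgb1, Itga2, Itgb6, Col17a1, Dst, Plec and Cd151, taken by name from the 35855 genes measured, and all 10 were among the 12211 genes kept by the filter on low counts. RNA was measured in 24 libraries, each made by SmartSeq2 from 1000 epithelial cells sorted from the trachea of naive wild-type female C57BL/6 mice. No treatment, age or allele other than wild type is given in the labels. The groups are BCAM HI, BCAM LO and DIFFERENTIATED EPCS (BCAM high, BCAM low and differentiated here), with 8 libraries each. The title of the series calls the BCAM sorts basal cell subsets, and BCAM is a laminin-binding surface protein. Batch 1 holds replicates 1 to 5 of every group and batch 2 holds replicates 6 to 8, and the labels do not say what the batch stands for. The labels do not say whether libraries came from separate animals, so every p-value measures only the spread between these samples.

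A hemidesmosome is built around the integrin heterodimer of the Itga6 and Itgb4 products, which binds laminin of the epithelial basement membrane. Inside the cell the long tail of the Itgb4 product binds plectin (Plec) and the epithelial plakin made from Dst, which hold keratin filaments, while collagen XVII (Col17a1) crosses the membrane and the tetraspanin Cd151 associates with laminin-binding integrins. The other members encode integrin subunits of focal contacts: Itga3 and Itga2 pair with Itgb1 as receptors for laminin and collagen, and Itgb6 pairs with Itgav in a receptor that binds and activates latent TGF-beta. In the trachea the basal cells carry the hemidesmosomes, and columnar cells are held to the layer largely through them.

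Rounded estimated counts totalled 2309430 to 3673329 per library in BCAM high, 1816180 to 4424108 among BCAM low and 2240166 to 2560477 among differentiated libraries. Levels of a gene across libraries are given as CPM, counts scaled to the TMM-adjusted library total. Levels of different genes are compared only as TPM, the authors' unit, which allows for transcript length. The labels were set against marker lists. The summed level of 6 basal markers ran from 5098 to 7582 CPM in BCAM high, 4898 to 5400 among BCAM low and 258 to 2593 among differentiated libraries, where Krt5 had a median of 0 CPM. Every differentiated library also held transcripts of thyroid follicle cells: the sum of 5 thyroid genes ran from 13786 to 116697 CPM there, against at most 1282 among BCAM high and 238 among BCAM low libraries, and all 5 had counts in every group. In the differentiated group that sum averaged 18843 CPM in batch 1 and 83024 in batch 2, while the sum of 6 secretory markers averaged 328666 in batch 1 and 33381 in batch 2. Genes of parathyroid and neuroendocrine cells, each with counts in the differentiated group, ran the other way there: the sum of 3 parathyroid genes averaged 5153 CPM in batch 1 and 82.1 in batch 2, that of 4 neuroendocrine genes 3413 and 91.6, and Pth reached 17647 CPM in differentiated 2. These libraries stand apart from their label, and results are therefore also given without differentiated 6, 7 and 8, which had over 40000 CPM of thyroglobulin (Tg), while the 5 that are then kept are those of batch 1 with the higher parathyroid and neuroendocrine means. Both comparisons with the differentiated group use the same 8 differentiated libraries. In bulk samples fewer cells of a type and less RNA per cell cannot be told apart.

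Most of the 10 genes stood higher in both BCAM groups than in the differentiated group. Against differentiated, 8 of 10 were higher in BCAM high and none was lower, while 41.3% of all tested genes were called, 19.4% higher and 22% lower (edgeR QL, called at a BH-adjusted p under 0.05). In BCAM low, 7 of 10 were higher and none lower, against backgrounds of 33.5% called, 16.3% higher and 17.1% lower. The lower direction held 0 members at an unadjusted p under 0.05 and 0 by the DESeq2 Wald test in each of these comparisons. Between BCAM high and BCAM low only Itgb4 was called of the 10, higher in BCAM high, where 7.02% of all genes were called, 2.43% higher and 4.59% lower. The median log2 fold change of the 10 genes was 1.57 for BCAM high against differentiated, 1.27 for BCAM low against differentiated and 0.38 for BCAM high against BCAM low. Over all tested genes these medians were 0.02, 0.02 and 0.00. Leaving out differentiated 6, 7 and 8 gave 9 of the 10 called for BCAM high against differentiated, where 36.9% of all genes were called and 17.4% higher. It gave 8 for BCAM low against differentiated, where 30.3% were called and 15% higher, and 4 between the BCAM groups, where 10.3% were called and 4.06% higher. All of these members were higher in the group named first.

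With those 3 libraries out, and so only batch 1 left in the differentiated group, the log2 differences of BCAM high and BCAM low from differentiated were 3.77 and 3.24 for Itgb4, 6.63 and 6.14 for Col17a1, 3.63 and 3.15 for Dst, 1.82 and 1.48 for Plec, 1.804 and 1.74 for Itga6, and 1.66 and 1.40 for Itga3. All 12 of these values were called (edgeR QL, BH-adjusted). Itgb6 gave 1.07 and 1.27, both called, and Itgb1 gave 0.36 and 0.44, of which only the value for BCAM low was called (adjusted p = 0.0582 and 0.0231). Itga2 gave 1.91 and 1.01 and Cd151 0.65 and 0.22, called for BCAM high only (adjusted p = 0.0186 and 0.236, and 0.00239 and 0.332).

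**Figure D1:**
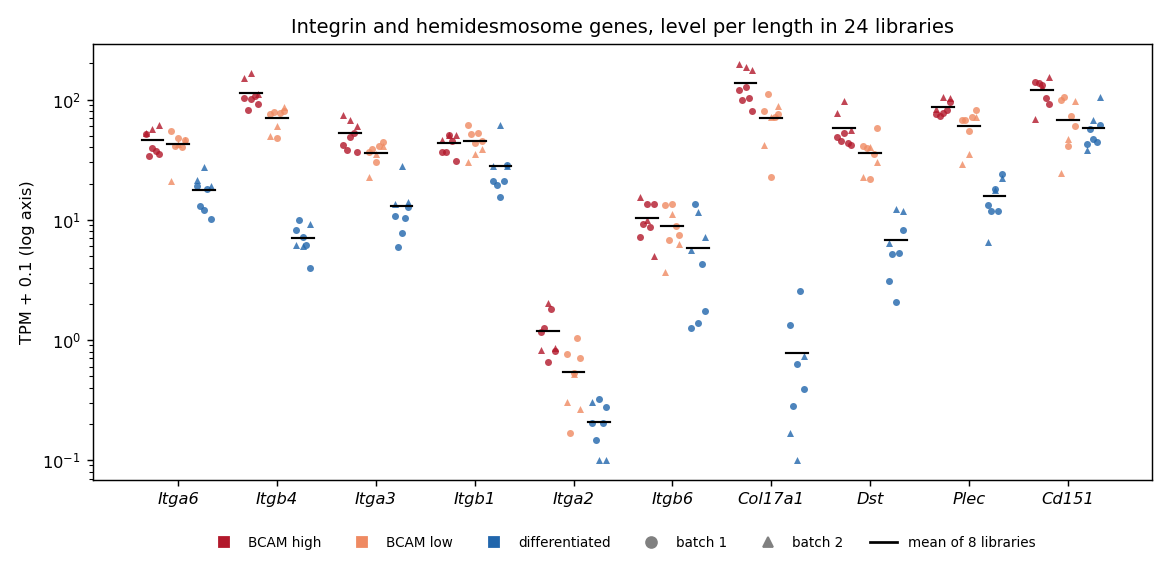
TPM + 0.1 of each of the 10 genes in every library on a log axis, coloured by group, with circles for batch 1, triangles for batch 2 and a line at the mean of 8 libraries. Itgb4, Col17a1, Dst and Plec lie lower in all 8 differentiated libraries than in any BCAM library, whereas the ranges of Itgb1 and Cd151 overlap in all groups.

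Promoter windows are shown for genes whose levels behaved differently. For Dst both listed RefSeq starts are shown, because its transcripts differed between the groups by where they start. The Dst gene begins further upstream, at 33908225, and its upstream window was not matched to the transcripts compared below. Windows of Col17a1, the gene with the widest difference, and of Itgb1, whose mean was 128 to 136 CPM in every group, are also shown. Each is the 250 bases upstream of a RefSeq start on GRCm38.p6, read on the strand of the gene, with every GC box (GGGCGG, searched on both strands) in capitals.
Dst, upstream start, chr1:34011345-34011594, plus strand: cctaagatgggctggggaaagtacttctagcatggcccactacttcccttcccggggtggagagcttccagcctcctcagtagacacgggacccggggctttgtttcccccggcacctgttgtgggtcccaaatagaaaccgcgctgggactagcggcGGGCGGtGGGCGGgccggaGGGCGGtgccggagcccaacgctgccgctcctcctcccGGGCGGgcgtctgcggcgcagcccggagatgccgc
Dst, internal start, chr1:34160010-34160259, plus strand: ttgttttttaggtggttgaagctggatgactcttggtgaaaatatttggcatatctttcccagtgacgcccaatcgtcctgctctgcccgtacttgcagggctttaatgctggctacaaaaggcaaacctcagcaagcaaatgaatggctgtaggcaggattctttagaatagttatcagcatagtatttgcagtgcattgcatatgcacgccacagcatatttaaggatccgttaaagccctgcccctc
Col17a1, chr19:47692043-47692292, minus strand: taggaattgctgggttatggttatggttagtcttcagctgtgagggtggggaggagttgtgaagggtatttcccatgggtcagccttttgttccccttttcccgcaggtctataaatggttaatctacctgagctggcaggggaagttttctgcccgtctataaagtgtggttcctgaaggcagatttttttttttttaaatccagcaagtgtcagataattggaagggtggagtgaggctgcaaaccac
Itgb1, chr8:128685404-128685653, plus strand: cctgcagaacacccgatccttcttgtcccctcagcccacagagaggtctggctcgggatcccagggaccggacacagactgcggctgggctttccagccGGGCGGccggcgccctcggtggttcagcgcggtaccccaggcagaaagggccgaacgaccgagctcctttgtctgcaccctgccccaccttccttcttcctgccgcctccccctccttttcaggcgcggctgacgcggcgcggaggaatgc
The window of the upstream Dst start is 68.8% G and C and holds 4 GC boxes, and that of Itgb1 is 68.0% G and C and holds 1. The window of the internal Dst start is 45.2% G and C and that of Col17a1 46.0%, and neither holds a GC box. Windows not shown were mixed. Those of Itga3, called higher in both BCAM groups than in differentiated, are 67.6% and 50.8% G and C with 3 and 1 GC boxes. Those of Cd151 are 62.4% and 58% with 2 and 0. Those of Itgb6 are 52% and 38% with 0 each, and that of Itga2 is 60.8% with 0. Of all 32851 such windows, 32.7% hold a GC box. The AP-1 core TGANTCA, searched on both strands, is in 6.75% of all windows and in 0 of the 11 windows of the 7 members that the promoter table lists (Dst, Itgb6, Cd151, Itgb1, Itga3, Itga2 and Col17a1). These matches describe the letters of the windows only.

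Itgb4 (GRCm38 chromosome 11, 115974709 to 116008412, plus strand), the beta subunit found in hemidesmosomes, separated all 3 groups without overlap by CPM. The lowest, median and highest libraries were 478, 536 and 717 CPM in BCAM high, 310, 413 and 444 CPM among BCAM low and 32.8, 40.1 and 60.9 CPM among differentiated libraries. Every BCAM high library was above every BCAM low library by CPM, a separation shown by 0.5% of tested genes in that direction and by 1.5% in either. By TPM the BCAM groups overlapped, at 82.4 to 165 TPM in BCAM high and 47.9 to 87.0 TPM in BCAM low. Means were 564 ± 89.2, 391 ± 55.4 and 43.0 ± 8.97 CPM (SD, n = 8). Itgb4 was 13.1-fold higher in BCAM high than in differentiated (log2 fold change 3.71, SE 0.13; edgeR QL, BH-adjusted p = 1.05e-18). It was 9.11-fold higher in BCAM low than in differentiated (log2 3.19, SE 0.13; edgeR QL, BH-adjusted p = 3.83e-17). Between the BCAM groups the fold was 1.43, or 0.52 on the log2 scale (SE 0.12; edgeR QL, BH-adjusted p = 0.00499). This last call was kept on leaving out any of the 24 libraries, at adjusted p-values from 0.00277 to 0.0157, but was lost with offsets for transcript length (log2 0.47, adjusted p = 0.0801). Within batches it was 0.35 in batch 1 (adjusted p = 0.0790) and 0.82 in batch 2 (adjusted p = 0.0210), all by edgeR QL with BH adjustment.

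Its partner Itga6 (chromosome 2, 71745616 to 71858416, plus strand), the laminin-binding alpha subunit, overlapped between the BCAM groups over all 8 libraries but not within batch 2. Libraries ran from 73.2 through a median of 95.0 to 123 CPM in BCAM high, from 58.2 through 92.4 to 110 CPM among BCAM low and from 16.1 through 33.8 to 78.1 CPM among differentiated libraries. The BCAM groups overlapped over much of their ranges. Of the differentiated libraries, differentiated 7 at 78.1 CPM reached into both, and differentiated 6 at 70.0 CPM into BCAM low only. Between the BCAM groups the difference was 0.01 on the log2 scale (SE 0.21; edgeR QL, BH-adjusted p = 0.994), and its sign turned under several alternatives. It was -0.29 in batch 1 alone (adjusted p = 0.289) and 0.68 in batch 2 alone (adjusted p = 0.112), and the interaction with batch, 0.98, was not called (adjusted p = 0.0769), all by edgeR QL with BH adjustment. In batch 2 the BCAM high libraries lay at 102 to 123 CPM and the BCAM low libraries at 58.2 to 84.4 CPM, with no overlap. Itgb4, Itga2, Col17a1, Dst and Plec also did not overlap between the BCAM groups in that batch. With 3 libraries per group such a separation can arise easily by chance. The share of all genes that did not overlap was not counted, so nothing is drawn from it. Itga6 was 2.37-fold higher in BCAM high than in differentiated (log2 1.24, SE 0.22; edgeR QL, BH-adjusted p = 4.36e-05) and 2.36-fold higher in BCAM low (log2 1.24, SE 0.22; adjusted p = 9.47e-05).

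The ratio of Itgb4 to Itga6 by TPM averaged 2.51 ± 0.414 in BCAM high, 1.71 ± 0.427 among BCAM low and 0.435 ± 0.177 among differentiated libraries (SD, n = 8). It ran from 1.802 to 2.897, from 0.996 to 2.37 and from 0.216 to 0.765, so every differentiated library lay below every BCAM library, while the BCAM groups overlapped. The mean log2 ratio was 0.58 higher in BCAM high than in BCAM low (exact permutation test of the labels within batches, two-sided, p = 0.00397; 0.00476 after BH adjustment over 6 tests). It was 2.61 higher in BCAM high and 2.03 higher in BCAM low than in differentiated, each at p = 0.000397, the smallest that the permutations can give (0.000595 after adjustment). The Itga6 TPM in this ratio includes a short noncoding transcript whose share differed between the groups and is given further on. By rounded counts, which do not allow for length, the ratio averaged 6.09, 4.52 and 1.32, and the BCAM groups differed by 0.45 on the log2 scale (exact permutation p = 0.00952, also 0.00952 after adjustment).

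**Figure D2:**
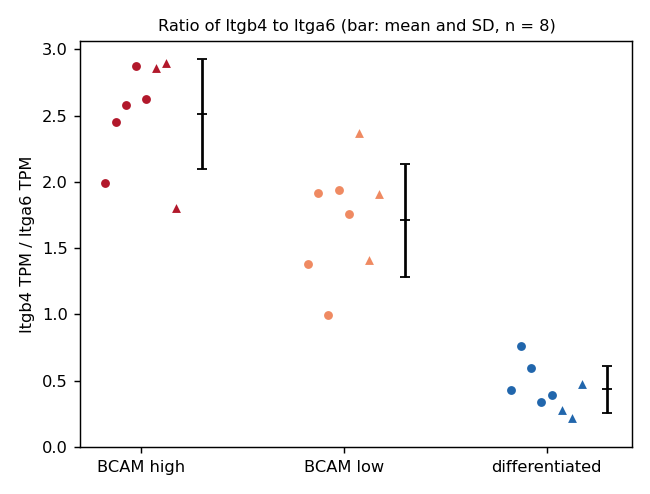
Ratio of Itgb4 to Itga6 by TPM in each of the 24 libraries, by group, with circles for batch 1, triangles for batch 2 and bars for mean and SD. All 8 differentiated libraries lie below 1, and the BCAM low libraries lie between 0.996 and 2.37.

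Col17a1 (chromosome 19, 47646344 to 47692094, minus strand), collagen XVII, stood at over 100 CPM in the BCAM groups and at under 7 CPM in differentiated. Libraries ran from 243 through a median of 297 to 602 CPM in BCAM high and from 130 through 257 to 326 CPM in BCAM low. In differentiated they ran from 0 through 1.21 to 6.335 CPM, and differentiated 7 had no count. The differentiated group held 28 counts of Col17a1 in all, against 10029 in BCAM high and 6582 in BCAM low. The fitted log2 fold change was 7.54 (SE 0.39) for BCAM high against differentiated and 7.03 (SE 0.39) for BCAM low (edgeR QL, BH-adjusted p = 7.03e-13 and 3.63e-12). Between the BCAM groups it was 0.51 (SE 0.25; edgeR QL, BH-adjusted p = 0.253) and the ranges overlapped. In batch 1 alone and batch 2 alone it was 0.28 and 0.85 (edgeR QL, BH-adjusted p = 0.472 and 0.0178). Within batch 2 libraries ran from 420 to 602 CPM in BCAM high and from 255 to 326 CPM in BCAM low.

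The plakins link the integrin to keratin. Dst (chromosome 1, 33908225 to 34308661, plus strand) had lowest, median and highest libraries of 282, 323 and 534.5 CPM in BCAM high, 208, 248 and 380 CPM among BCAM low and 22.2, 33.0 and 63.1 CPM among differentiated libraries. No differentiated library reached a BCAM library. Dst was higher in BCAM high by 3.33 (SE 0.19) and in BCAM low by 2.87 (SE 0.19) on the log2 scale than in differentiated (edgeR QL, BH-adjusted p = 2.52e-13 and 7.46e-12). Between the BCAM groups the log2 fold change was 0.46 (SE 0.17) and missed the threshold (edgeR QL, BH-adjusted p = 0.109). Without BCAM low 5, whose 380 CPM was the highest of its group, it was 0.59 and passed (adjusted p = 0.0210). In batch 1 alone and batch 2 alone it was 0.19 and 0.98 (edgeR QL, BH-adjusted p = 0.501 and 0.0142). Within batch 2 libraries ran from 329 to 534 CPM in BCAM high and from 208 to 250 CPM in BCAM low.

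Plec (chromosome 15, 76170974 to 76232574, minus strand), which encodes plectin, had lowest, median and highest libraries of 508, 599 and 624 CPM in BCAM high, 307, 483 and 592 CPM among BCAM low and 122, 178 and 198 CPM among differentiated libraries. No differentiated library reached a BCAM library, and the BCAM groups overlapped. Plec was 3.44-fold higher in BCAM high (log2 1.78, SE 0.11) and 2.72-fold higher in BCAM low (log2 1.44, SE 0.11) than in differentiated (edgeR QL, BH-adjusted p = 2.82e-13 and 3.41e-11). BCAM high was above BCAM low in 8 of 8 same-numbered comparisons, as it also was for Cd151, and the share of all genes with this was not counted. BCAM high exceeded BCAM low by 0.34 on the log2 scale (SE 0.11), at an adjusted p just over the threshold (edgeR QL, BH-adjusted p = 0.0531). That value passed on leaving out BCAM low 4, BCAM low 5, differentiated 6 or differentiated 7 (adjusted p = 0.0460, 0.0353, 0.0452 and 0.0442), and with the replicate number as a block, at 0.35 (adjusted p = 0.0326). In batch 1 alone and batch 2 alone the difference was 0.18 and 0.62 (edgeR QL, BH-adjusted p = 0.356 and 0.0919). Within batch 2 libraries ran from 508 to 618 CPM in BCAM high and from 307 to 470 CPM in BCAM low.

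Cd151 (chromosome 7, 141467392 to 141471473, plus strand), a tetraspanin, differed least from differentiated among the hemidesmosome genes. Libraries ran from 76.2 through a median of 107 to 137 CPM in BCAM high, from 50.7 through 81.1 to 109 CPM among BCAM low and from 61.6 through 83.5 to 108 CPM among differentiated libraries, and all 3 ranges overlapped. It was called higher in BCAM high than in differentiated (log2 0.38, SE 0.15; edgeR QL, BH-adjusted p = 0.0483). That call was kept in 9 of 24 fits that left out 1 library (those without BCAM high 6, BCAM low 1, 2, 3, 6 or 7, or differentiated 6, 7 or 8), with adjusted p-values of 0.0205 to 0.113 over the 24. It was lost with DESeq2 size factors (adjusted p = 0.0555), transcript length offsets (0.163) and no batch covariate (0.0506), and by the DESeq2 Wald test (0.0580), by which 7 of the 10 genes were called. In batch 1 alone the difference was 0.63 (edgeR QL, BH-adjusted p = 0.00200) and in batch 2 alone it was 0.002 (0.997). BCAM high against BCAM low gave 0.42 (SE 0.15; adjusted p = 0.0979), and BCAM low against differentiated gave -0.04 (SE 0.15; adjusted p = 0.883), both by edgeR QL with BH adjustment.

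Among the subunits of focal contacts the pattern was uneven. Itga3 (chromosome 11, 95044474 to 95076801, minus strand), a laminin receptor subunit, ran from 144 through 180 to 250 CPM in BCAM high, from 116 through 160 to 187 CPM among BCAM low and from 40.2 through 69.5 to 110 CPM among differentiated libraries. By CPM the differentiated libraries did not overlap with either BCAM group, and the BCAM groups overlapped. By TPM differentiated 7, at 28.2, lay above BCAM low 6, at 22.4. Itga3 was 2.55-fold higher in BCAM high (log2 1.35, SE 0.15) and 2.15-fold higher in BCAM low (log2 1.11, SE 0.15) than in differentiated (edgeR QL, BH-adjusted p = 3.11e-08 and 1.74e-06). Its common partner Itgb1 (chromosome 8, 128685654 to 128733200, plus strand), the shared beta subunit, averaged 129 ± 20.2, 136 ± 13.7 and 128 ± 54.6 CPM in BCAM high, BCAM low and differentiated (SD, n = 8). Its log2 fold changes, whose signs turned under some alternatives, were 0.03 for BCAM high against differentiated (SE 0.16), 0.13 for BCAM low against differentiated (SE 0.16) and -0.09 between the BCAM groups (SE 0.16), and none was called (edgeR QL, BH-adjusted p = 0.901, 0.594 and 0.807). Limma on log2(TPM + 0.1) and log2(TPM + 1) called Itgb1 higher against differentiated, by 0.74 and 0.72 in BCAM high (BH-adjusted p = 0.00395 and 0.00393) and by 0.78 and 0.76 in BCAM low (0.00488 and 0.00487). In those fits the median of all genes moved too, to 0.75 and 0.64 for BCAM high and 0.48 and 0.40 for BCAM low. Differentiated 7, at 242 CPM, had the highest Itgb1 of all libraries.

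Itga2 (chromosome 13, 114833081 to 114932100, minus strand), a collagen receptor subunit, was scarce everywhere, with 156 counts in BCAM high, 88 among BCAM low and 18 among differentiated libraries. Levels ran from 2.64 through a median of 4.26 to 10.6 CPM in BCAM high, from 0.473 through 2.94 to 6.88 CPM among BCAM low and from 0 through 1.13 to 2.64 CPM among differentiated libraries. BCAM high and differentiated met at 2.64 CPM without overlapping. Itga2 was called higher in BCAM high than in differentiated (log2 2.22, SE 0.57; edgeR QL, BH-adjusted p = 0.00240), and the difference of 1.29 for BCAM low missed the threshold (SE 0.58; adjusted p = 0.0873), passing only on leaving out BCAM low 2 among the 24 libraries (adjusted p = 0.0448).

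Itgb6 (chromosome 2, 60598292 to 60722643, minus strand), the beta subunit that pairs with Itgav, was the only member called against differentiated in BCAM low alone. Libraries ran from 16.6 through 22.0 to 27.9 CPM in BCAM high, from 18.7 through 26.1 to 35.9 CPM among BCAM low and from 8.64 through 15.1 to 34.6 CPM among differentiated libraries. All ranges overlapped, with differentiated 7 at 34.6 CPM well above the other differentiated libraries. The log2 fold change was 0.72 (SE 0.23) in BCAM low and 0.48 (SE 0.23) in BCAM high against differentiated (edgeR QL, BH-adjusted p = 0.0179 and 0.0984). On leaving out differentiated 7 the value for BCAM high was 0.73 and passed (adjusted p = 0.00537). The BCAM groups themselves differed by -0.24 (SE 0.22; edgeR QL, BH-adjusted p = 0.596), a value that was not called and turned positive in the TPM fits and in batch 2 alone.

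**Figure D3:**
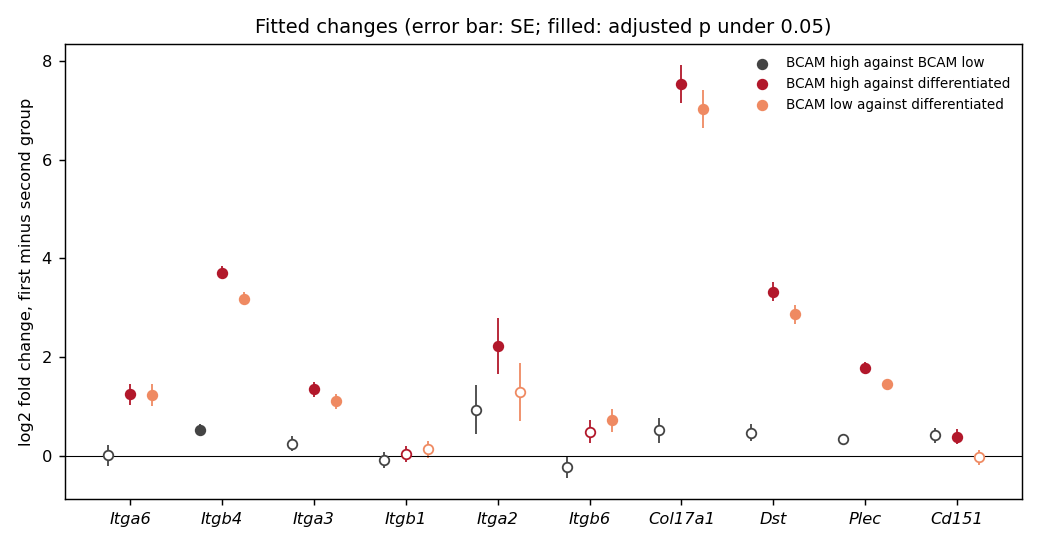
Fitted log2 fold changes of the 10 genes with their standard errors in the 3 comparisons, filled where called. Col17a1, Itgb4 and Dst have the highest values against differentiated, and Itgb4 alone is filled between the BCAM groups.

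Groups whose CPM did not overlap were also counted. Against differentiated, 6 of the 10 genes lay wholly higher in BCAM high (Itgb4, Itga3, Itga2, Col17a1, Dst and Plec), where 6.1% of tested genes did (13.4% in either direction), and 5 in BCAM low (the same without Itga2), where 3.44% did (7.27% in either direction). Between the BCAM groups it was Itgb4 alone. Marker lists also differed between the BCAM groups: the sum of 6 secretory markers ran from 25752 to 34768 CPM in BCAM high and from 34428 to 74898 in BCAM low. The sum of 5 fibroblast markers ran from 168 to 672 and from 65.3 to 377 CPM, most of it Dcn, which averaged 381 and 210 CPM. The other 4 fibroblast markers averaged lower in BCAM high than in BCAM low, Col1a1 at 1.32 and 9.23, Col1a2 at 3.02 and 10.2, Col3a1 at 1.79 and 15.6 and Pdgfra at 0.7096 and 1.62 CPM. The sum of 4 suprabasal and hillock markers ran from 588 to 1156 CPM in BCAM high and from 1112 to 2504 in BCAM low. The sum of 5 smooth muscle and myoepithelial markers ran from 14.7 through a median of 28.2 to 53.6 CPM in BCAM high and from 2.02 through 8.01 to 20.6 in BCAM low. The basal keratin Krt5 ran from 1262 to 2135 CPM in BCAM high and from 701 to 1122 in BCAM low, without overlap, and Krt14 averaged 142 and 34.8 CPM. Another basal keratin, Krt15, ran the other way: its BCAM high mean, 3098 CPM, was below its BCAM low mean, 3506 CPM, with overlapping ranges. The means of the remaining basal markers, Trp63, Ngfr and Pdpn, were higher for BCAM high. Every marker of these lists had counts in both groups. The part of these transcripts in the Itgb4 difference was not tested.

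The order of the 10 genes by mean TPM was taken in each group. In BCAM high it was Col17a1 at 137, Cd151 at 119, Itgb4 at 114, Plec at 87.0, Dst at 58.0, Itga3 at 52.5, Itga6 at 46.08, Itgb1 at 43.4, Itgb6 at 10.2 and Itga2 at 1.08 TPM (means, n = 8). In BCAM low it was Col17a1 at 70.3, Itgb4 at 69.6, Cd151 at 68.2, Plec at 59.8, Itgb1 at 44.9, Itga6 at 42.4, Itga3 at 36.1, Dst at 36.1, Itgb6 at 8.81 and Itga2 at 0.438 TPM. In both BCAM groups the ranges of neighbours overlapped down to the step above Itgb6, and the steps above Itgb6 and above Itga2 did not overlap. In differentiated the order was Cd151 at 57.6, Itgb1 at 27.8, Itga6 at 17.4, Plec at 15.6, Itga3 at 12.9, Itgb4 at 6.99, Dst at 6.70, Itgb6 at 5.74, Col17a1 at 0.673 and Itga2 at 0.107 TPM, with every pair of neighbours overlapping. Collagen XVII, first by its mean in both BCAM groups, was above the next gene in only 3 of 8 BCAM high and 4 of 8 BCAM low libraries. In batch 1 the Cd151 mean was above it, at 121 against 106 TPM in BCAM high and 75.7 against 72.2 TPM in BCAM low. The transcript Col17a1-204 held 51.3% ± 10.2 of Col17a1 TPM in BCAM high and 34.3% ± 21.8 in BCAM low (SD, n = 8). The place of Col17a1 in this order thus depends on how reads were split over its transcripts.

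Several of these differences changed between the batches. The interaction of batch and comparison was called for 6 of 10 members for BCAM low against differentiated (background 11.4%), for 1 of 10 for BCAM high against differentiated (background 8.69%) and for 0 of 10 between the BCAM groups (background 1.06%; 5 of 10 at an unadjusted p under 0.05; not run with DESeq2). The differentiated mean of Itga6 was 27.0 CPM in batch 1 and 63.8 in batch 2, that of Itga3 58.2 and 95.6, that of Itgb1 101 and 173, that of Itgb6 11.6 and 23.8 and that of Dst 27.8 and 50.01. All 5 were thus higher in batch 2, while the BCAM low mean of each was lower in batch 2 (Itga6 102 and 70.4, Itga3 163 and 134, Itgb1 141 and 128, Itgb6 29.8 and 20.3, Dst 271 and 225 CPM). Itga6 was higher in BCAM low than in differentiated by 1.90 in batch 1 alone and by 0.14 in batch 2 alone on the log2 scale (edgeR QL, BH-adjusted p = 1.47e-09 and 0.739).

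Itga3 followed the same course, at 1.48 in batch 1 and 0.48 in batch 2 (adjusted p = 5.94e-09 and 0.134), and Itgb6 at 1.36 and -0.24 (adjusted p = 4.84e-05 and 0.698). Dst kept its call in both, at 3.28 and 2.16 (adjusted p = 3.50e-13 and 1.09e-05), and Itgb1 gave 0.48 and -0.44 (adjusted p = 0.0219 and 0.209), all by edgeR QL with BH adjustment. Itgb4 and Plec, whose interactions were not called for either BCAM group, were higher against differentiated in both batches: Itgb4 by 3.67 and 3.76 in BCAM high and by 3.32 and 2.95 in BCAM low, and Plec by 1.73 and 1.86 and by 1.56 and 1.23. Differentiated 7 had the highest level of Itga6, Itga3, Itgb1, Itgb6 and Dst of its group and also the highest summed thyroid level, 116697 CPM. Whether the thyroid transcripts account for these levels was not tested, and in the differentiated group they cannot be told apart from batch.

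Col17a1 ran the other way. Its differentiated counts fell from 26 in batch 1 to 2 in batch 2, while its BCAM high mean was 271 CPM in batch 1 and 520 in batch 2. The ratio of summed counts over scaled totals in batch 1 was 92.5 (95% interval 63.1 to 142, exact conditional binomial) for BCAM high against differentiated and 76.6 (52.2 to 117) for BCAM low. In batch 2 the ratios were 1692 (468 to 13979) and 933 (258 to 7706). The intervals cover counting error only. The interactions of 4.03 and 3.45 on the log2 scale (edgeR QL, BH-adjusted p = 0.00149 and 0.00615) rest on those 2 counts and depend on the prior count of the fit.

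**Figure D4:**
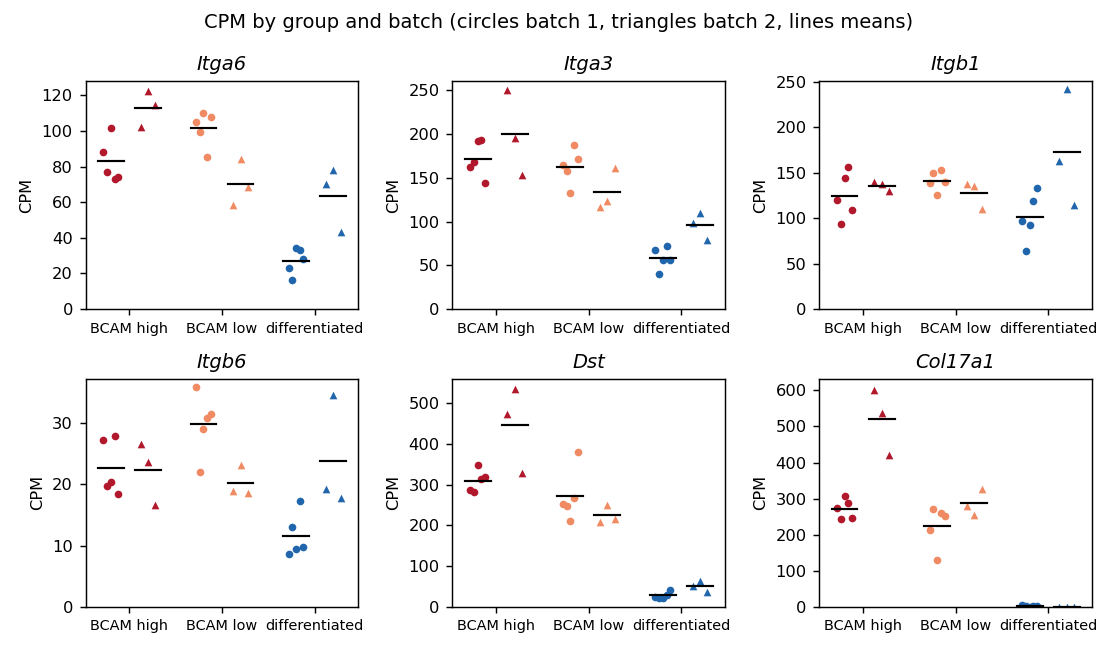
CPM by library of the 6 genes whose interaction with batch was called, by group, with circles for batch 1, triangles for batch 2 and lines at the means. The differentiated means of Itga6, Itga3, Itgb1, Itgb6 and Dst are higher in batch 2 and that of Col17a1 is lower.

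Dst differed between the groups in which transcripts it was made of as well as in level. The locus is known to give an epithelial plakin of the hemidesmosome and longer forms of nerve and muscle, and the files do not name which transcript is which. Shares of a gene's TPM were compared for the 33 transcripts that made up at least 10% in a group, out of 96 listed, and 7 of 93 tests were called (exact permutation within batches, two-sided, BH-adjusted over 93). The transcript Dst-213 starts at an internal site (M21 position 34160330, 70 bases after the RefSeq start of the internal window shown above), ends at 34183904, is 8788 bases long and codes for 2639 residues. It held 40.7% ± 6.26 of Dst TPM in BCAM high, 38.2% ± 7.85 among BCAM low and 2.90% ± 2.61 among differentiated libraries (SD, n = 8). The lowest BCAM library was 27.3% and the highest differentiated library 6.80%. The BCAM groups each differed from differentiated (exact permutation p = 0.000397, the smallest possible; BH-adjusted p = 0.00738), while between them the difference was 2.51 percentage points (exact permutation p = 0.501).

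Dst-213 itself stood at 23.7, 13.3 and 0.244 TPM in the 3 groups. The 3 transcripts that share its start held 47.5%, 42.9% and 5.66% of Dst TPM. The 7 coding transcripts that start upstream held 5.01%, 6.86% and 11.6%, and the 10 that start downstream or do not code held 47.4%, 50.3% and 82.8%. Taken by estimated counts, which do not allow for length, the internal start gave 6365 counts in BCAM high, 4071 among BCAM low and 107 among differentiated libraries. The upstream coding starts gave 1387, 1264 and 162, and the transcripts that start downstream or do not code gave 2307, 1874 and 304. By counts the internal start thus held the most in the BCAM groups, and this last class the most in differentiated. Counts of every class were lower in differentiated, those of the internal start by the widest ratio.

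**Figure D5:**
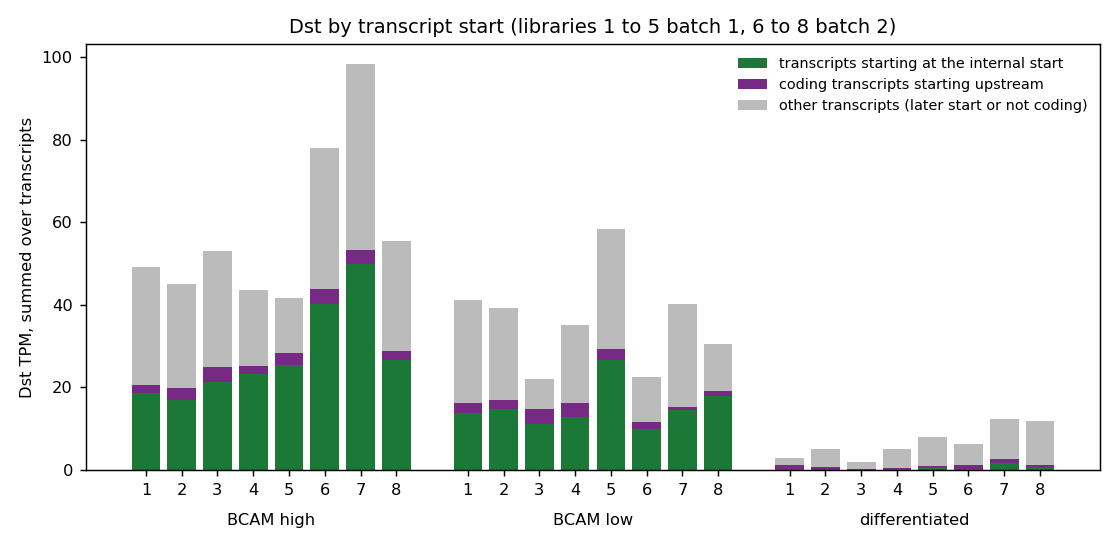
Dst TPM in each of the 24 libraries as bars from 0, stacked by transcripts that start at the internal site, coding transcripts that start upstream, and the rest. The internal site holds 37.8% to 61.0% of the bar among BCAM high libraries and 0% to 14.1% among differentiated ones.

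Of the other genes, Plec-201 (15001 bases) held 37.5% ± 4.82 of Plec TPM in BCAM high, 37.9% ± 6.40 among BCAM low and 15.3% ± 10.7 among differentiated libraries, with both comparisons against differentiated called (exact permutation p = 0.000397, BH-adjusted p = 0.00738). Itgb4-201 held 13.5% ± 8.99 in BCAM high and 8.88% ± 7.34 in BCAM low and was listed at or near 0 in all 8 differentiated libraries (exact permutation, BH-adjusted p = 0.0316 and 0.00738). Itga6-205, a short noncoding transcript of 443 bases, held 17.3% ± 7.58 of Itga6 TPM in BCAM high, 31.6% ± 9.90 among BCAM low and 47.6% ± 22.1 among differentiated libraries. BCAM high differed from differentiated (exact permutation, BH-adjusted p = 0.0123), and its difference from BCAM low, -14.3 percentage points, was not called (exact permutation p = 0.00595, BH-adjusted p = 0.0615), so TPM of Itga6 depends on this transcript in all groups. Shares divide reads between transcripts that overlap and were estimated by the authors' program, and no share was called between the BCAM groups.

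The genes most like Itgb4 across the 24 libraries, by the root mean square difference of centred log2 CPM over 9414 genes with a mean of at least 10 CPM, were Amotl1 at 0.38, Dst at 0.41, Fat2 at 0.46, Hyal1 at 0.51 and Epb41l3 at 0.52. Amotl1 (angiomotin-like) averaged 187 ± 19.3, 152 ± 44.2 and 18.3 ± 5.03 CPM in the 3 groups, and Fat2, an atypical cadherin, 371 ± 74.2, 252 ± 63.8 and 41.2 ± 20.7 CPM. Plec ranked 132nd, Itga3 282nd and Itga6 332nd by this measure, and Col17a1 7367th, with a wider range across the libraries than Itgb4.

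Group means below run in the order BCAM high, BCAM low, differentiated. Among the other integrin genes, 10 of 20 passed the filter on low counts. Against differentiated, 3 were higher and 1 lower in BCAM high, 4 higher and 1 lower in BCAM low, while 41.3% and 33.5% of all genes were called, and none was called between the BCAM groups, where 7.02% of all genes were (0 of 10 higher and 1 lower at an unadjusted p under 0.05, 0 by DESeq2). Itgb5, a partner of Itgav, averaged 44.2 ± 10.7, 48.7 ± 21.5 and 25.4 ± 7.003 CPM (log2 0.79 and 0.88 against differentiated, edgeR QL, BH-adjusted p = 4.53e-04 and 2.11e-04). Itga9 averaged 8.21, 8.52 and 2.58 CPM, and Itgb7, called in BCAM low only, 5.57, 9.59 and 3.34. Itga4, an alpha subunit of leukocytes among other cells, was the lower one, at 4.21 ± 2.86, 6.44 ± 4.45 and 21.9 ± 20.9 CPM (edgeR QL, BH-adjusted p = 0.00491 and 0.0275).

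Of 22 genes for ligands of these receptors, 17 passed the filter. Against differentiated 8 were higher and 6 lower in BCAM high, and 5 higher and 5 lower in BCAM low (41.3% and 33.5% of all genes called), and 0 were called between the BCAM groups against 7.02% of all genes (4 higher and 1 lower at an unadjusted p under 0.05; DESeq2 called 1 higher). The higher ones included anchoring fibril collagen Col7a1 (91.3 ± 16.8, 64.9 ± 7.48 and 1.32 ± 1.32 CPM, log2 6.03 and 5.56 against differentiated, edgeR QL, BH-adjusted p = 1.68e-16 and 2.55e-15) and the laminin chain genes Lama3 (40.9, 31.3 and 4.77) and Lamb3 (374, 219 and 51.0). The lower ones included Lamb1 (3.26, 3.20 and 24.3 ± 28.1), Col4a2 (5.52, 4.27 and 39.0 ± 37.8) and Col4a1 (8.13, 3.57 and 30.8 ± 25.5).

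Of 30 partner genes of adhesion sites, 28 passed the filter. In BCAM high 4 were higher and 2 lower than in BCAM low, against 7.02% of all genes called, 2.43% higher and 4.59% lower. Tns4, a tensin, was higher in BCAM high by 1.04 on the log2 scale (SE 0.17; 136 ± 54.1 against 65.1 ± 26.0 CPM, and 3.999 in differentiated) and Fermt1, the epithelial kindlin that activates integrins, by 0.61 (SE 0.16; 63.4 ± 5.93 against 41.5 ± 8.41 CPM, and 8.01 in differentiated; edgeR QL, BH-adjusted p = 1.76e-04 and 0.0209). Tns3 followed at 0.61 (edgeR QL, BH-adjusted p = 0.04996). Cd82, another tetraspanin, ran the other way: it averaged 58.5 ± 9.97, 111 ± 10.7 and 281 ± 25.6 CPM in the 3 groups, and BCAM high was lower than BCAM low by 0.92 (edgeR QL, BH-adjusted p = 7.50e-07). Against differentiated, 8 were higher and 5 lower in BCAM high, and 7 higher and 5 lower in BCAM low (41.3% and 33.5% of all genes called), with Tns4 and Fermt1 among the higher and Cd82 among the lower in both.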

How the data were processed

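The deposited tables gave, per the file headers, an estimated count and a TPM value for every transcript, with its length and effective length. Per the submitters' processing notes, kallisto 46.1, Picard and GRCm39 were named without a role, while the index and its gene models were not given in the sources used here. Of 117497 transcripts, 116374 matched GENCODE M21 (GRCm38), whose coordinates are printed and are not those of the authors' build. The 1123 unmatched ones held 0.317% to 0.594% of the estimated counts and were left out. Estimated counts were summed per gene and rounded, and TPM summed per gene. Promoter sequences and starts are RefSeq's, on GRCm38.p6.

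edgeR 4.0.16 (quasi-likelihood F-test, TMM, default filter on low counts; edgeR QL) was fitted once over 24 libraries with group means and batch as a covariate, and p-values were BH-adjusted over 12211 genes. SE is the absolute log2 fold change over the square root of F. Interactions came from a fit of 6 group-by-batch means. Transcript shares and ratios were tested by exact permutation within batches. The main edgeR fit was tested on counts simulated without a batch effect, for BCAM high against BCAM low only. Alternatives were DESeq2 1.42.0 (size factors or Wald test), no filter, limma 3.58.1 on log2(TPM + 0.1) or log2(TPM + 1), transcript length offsets, only 2 groups, no batch covariate, a replicate block, each batch alone and each library left out. Leaving out the differentiated libraries above 40000 CPM of Tg was added after the data had been seen.

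The members, lists and rule for named genes were chosen with earlier results of these data known. The rule named all 10 members, transcripts with at least 10% of a gene's TPM, the 5 genes most like Itgb4, and, from each further list, per comparison and direction, at most 3 called genes of at least 5 CPM with the largest changes. One gene of the ligand list is not reported here by name. The protocol named no molecular identifiers, so amplified reads may repeat a molecule and the intervals cover counting error only. kallisto-type counts split reads over transcripts of shared sequence.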

Additional observations from a re-analysis of the deposited data

Results flagged for a closer look

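Dixon's test was applied to each of the 30 sets of 8 CPM values (10 genes in 3 groups), at a level where chance flags about 5% of sets, and 3 held a library apart from the others. Itgb6 in differentiated 7 was 34.6 CPM, with the next library at 19.2. Dst in BCAM low 5 was 380 CPM, with the next at 266. Plec in BCAM high 6 was the lowest of its group at 508 CPM, with the next at 570.

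For 6 genes the difference from the differentiated group changed from batch 1 to batch 2 by the interaction test (edgeR QL, BH-adjusted). For BCAM low against differentiated the change was -1.76 on the log2 scale for Itga6, -1.002 for Itga3, -0.92 for Itgb1, -1.59 for Itgb6, -1.12 for Dst and 3.45 for Col17a1 (adjusted p = 7.93e-05, 0.00655, 0.0305, 0.00529, 0.0102 and 0.00615). For BCAM high against differentiated it was 4.03 for Col17a1 (adjusted p = 0.00149). The Col17a1 values rest on 2 counts in the differentiated libraries of batch 2.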

How the results depend on the processing

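Between BCAM high and BCAM low the number of the 10 genes called (1) was 2 with the DESeq2 Wald test, 2 and 4 with limma on log2(TPM + 0.1) and log2(TPM + 1), 0 with transcript length offsets, 5 with only the 2 groups compared, 0 in batch 1 alone, 3 in batch 2 alone and 4 without the differentiated libraries high in Tg. All genes called there (857) were 1297 with only the 2 groups, 545 with no batch covariate, 543 in batch 2 alone and 1331 without the libraries high in Tg. BCAM high against differentiated called 7688 and 7713 genes with limma against 5044. BCAM low against differentiated called 4 members and 2221 genes in batch 2 alone, against 7 and 4086. Limma on TPM moved the median log2 fold change of all genes to 0.26 and 0.23, 0.75 and 0.64, and 0.48 and 0.40, and the split of higher and lower calls from 297 and 560 to 592 and 189 or 820 and 228, from 2363 and 2681 to 6809 and 879 or 6812 and 901, and from 1996 and 2090 to 4277 and 624 or 4210 and 652. Leaving out 1 library gave 1 to 3, 7 to 9 and 7 to 8 members and 685 to 979, 4768 to 5225 and 3761 to 4194 genes.

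Directions turned only for genes that were not called in that comparison, except as stated. Between the BCAM groups Itga6 was -0.16 with length offsets and -0.29 in batch 1 alone, Itgb6 was 0.24 and 0.22 with limma and 0.13 in batch 2 alone, and Itgb1 was 0.083 in batch 2 alone. Against differentiated in BCAM high, Itgb1 was -0.025 with length offsets and -0.36 in batch 2 alone, and Itgb6 -0.11 in batch 2 alone. In BCAM low, Itgb1 was -0.44 and Itgb6, which was called, -0.24 in batch 2 alone, and Cd151 was 0.020 without the filter, 0.17 with either limma fit, 0.23 in batch 1 alone and 0.22 without the libraries high in Tg. Leaving out 1 library moved Itga6 between the BCAM groups over -0.107 to 0.070, Itgb1 in BCAM high over -0.072 to 0.200 and Cd151 in BCAM low over -0.100 to 0.051. The cause was not tested. Depth limits Itga2 and Col17a1, which had 18 and 28 counts over the differentiated libraries.

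Correlations of the deviations of same-numbered libraries of different groups were low, at 0.0315 to 0.176 over 24 pairs, 7 of them above 0.1. In 23 of 24 pairs, however, the first library correlated best, within its batch, with the library of its own number. The numbers may thus mark pairs. The main fit and the permutations did not take them as pairs and treated these libraries as independent. A replicate block called 2 members and 864 genes between the BCAM groups, Plec joining at 0.35 (edgeR QL, BH-adjusted p = 0.0326), and 8 and 7 members against differentiated.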
